A study of Mus musculus with 12 samples.

Results

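Cd28, Ctla4, Lag3, Cd86 and Cd40lg encode the receptors and ligands through which T cells and antigen-presenting cells stimulate or restrain each other. They were examined as 5 named genes in RNA sequencing of CD31+ lung cells from mice, and all 5 have values among the 9338 distinct genes of the 4 deposited comparison tables. RNA was sequenced from 12 male mice on a C57Bl/6J background in 4 groups of 3, with 1 library per mouse. All mice were TET2fl/fl, all received tamoxifen at 40 mg/kg on 3 days when 6 to 8 weeks old, and tissue was taken at the end of the diets. Mice without the Cdh5-CreERT2 recombinase are called WT, and those with it TET2 KO. WT and TET2 KO mice were then fed for 20 weeks either chow, with 13% of its energy from fat, or a high-fat diet (HFD) with 60%. CD31, encoded by Pecam1, is an adhesion molecule of endothelial cells that platelets and many leukocytes also carry, and cells were selected for it with magnetic beads. TET2 is a DNA demethylase. The Cdh5 promoter directs deletion of its gene to endothelial cells, so T cells and dendritic cells, in which the 5 genes are best known, were not targeted.

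T cells need a second signal beside antigen to become fully active, and CD28 is the receptor that delivers it. Its ligand CD86 is a B7-family protein that dendritic cells, macrophages and B cells raise on activation. CTLA-4 binds the same ligand more tightly than CD28 and restrains the T cell. LAG-3 is a related brake that recognises MHC class II on the presenting cell. CD40 ligand, encoded by Cd40lg, is shown mainly by activated CD4+ T cells and engages CD40 on B cells, dendritic cells and endothelial cells.

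Cd28 (ENSMUSG00000026012) lies on chromosome 1 from 60716800 to 60773359 of GRCm38 on the plus strand, and Ctla4 (ENSMUSG00000026011) follows on the same strand from 60887000 to 60915832, 113641 bases further on. The Ctla4 span overlaps the pseudogene Rpl18-ps1 on the same strand, so reads of the 2 may not be separable. Lag3 (ENSMUSG00000030124) lies beside Cd4 on chromosome 6 from 124904361 to 124911705, minus strand. Cd86 (ENSMUSG00000022901) is on chromosome 16 from 36603869 to 36666081, minus strand. Cd40lg (ENSMUSG00000031132) is on chromosome X from 57212143 to 57224042, plus strand. All values are sums over the reads counted on each gene, so isoforms are not distinguished.

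Of the 5 genes, 1 (Ctla4) has a RefSeq promoter window in the reference used here. It is printed because Ctla4 and Cd28 varied together across the chow libraries. The window runs from 250 bases before to 50 bases after the start that RefSeq annotates, which lies inside the GENCODE span given above, at chr1:60908775-60909074 of GRCm38.p6 on the plus strand. Capitals mark matches to TATAAA (the TATA box core) and to GGAAA (the core bound by NFAT, the factor that T cell activation sends to the nucleus), both searched on either strand.
Ctla4 promoter: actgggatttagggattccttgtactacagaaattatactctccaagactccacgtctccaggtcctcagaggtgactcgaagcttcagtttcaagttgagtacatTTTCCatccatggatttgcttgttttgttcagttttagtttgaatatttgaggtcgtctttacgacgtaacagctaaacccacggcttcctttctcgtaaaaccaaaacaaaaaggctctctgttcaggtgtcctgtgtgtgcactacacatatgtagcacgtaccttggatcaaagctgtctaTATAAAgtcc
The window held 1 GGAAA core, on the minus strand, and 1 TATAAA, which lies after the RefSeq start. GGAAA occurs in 61.5% of 32544 promoter windows of the same length and TATAAA in 13.6%, so neither match sets Ctla4 apart. The STAT-type sequence TTCNNNGAA, present in 8.33% of the windows, had no match. The matches do not overlap each other.

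Library totals were 36.7 to 56.8 M reads on genes. Each of the deposited tables holds only genes that passed an unadjusted p under 0.05 in the authors' own test, so shares of genes passing a test are high in every comparison. Cd28 and Ctla4 are in the table of TET2 KO against WT on chow alone and were analysed in the 6 chow libraries, whereas Lag3, Cd86 and Cd40lg have values in all 12. Tet2 has values only in the WT libraries (5.02 ± 0.25 FPKM on chow and 6.37 ± 0.32 on HFD, SD, n = 3). It is thus not among the genes that passed the authors' test between TET2 KO and WT on either diet. Its deletion was not checked here. In the WT chow libraries the endothelial markers Pecam1 and Cdh5 were at 36.0 to 79.9 and 47.8 to 118 FPKM, and Cd3e of the T cell receptor complex was at 5.63 to 8.92. The airway secretory gene Scgb1a1 reached 4165 to 5481 FPKM in the same libraries, so the CD31+ preparations held RNA of other lung cells. In bulk RNA, fewer cells of a type and less RNA per cell cannot be told apart.

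Cd28, the activating receptor, was at 10.7, 6.61 and 6.79 FPKM (fragments scaled to gene length and to the library's total) in the 3 WT chow libraries and at 12.7, 10.7 and 11.8 in the 3 TET2 KO chow libraries. The lowest TET2 KO library stood just above the highest WT library, and the first WT library was well above the other two. In edgeR's quasi-likelihood test Cd28 was 1.46-fold higher in TET2 KO, a log2 fold change of 0.54 with SE 0.23 and an unadjusted p of 0.0463. The edgeR adjusted p, by Benjamini-Hochberg over the 9338 genes, was 0.52, so the difference did not pass an adjusted p under 0.05, the threshold used for calls throughout. Cd28 rested on 1485 to 3320 reads per library, so counting error is small beside the spread between mice.

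Ctla4, the competing inhibitory receptor, was at 16.2, 9.53 and 10.3 FPKM in WT chow and at 19.6, 15.3 and 16.9 in TET2 KO chow. The groups overlapped, because the first WT library exceeded the lowest TET2 KO library. The log2 fold change was 0.52 with SE 0.24, and neither the unadjusted edgeR p of 0.0672 nor the adjusted p of 0.57 passed the threshold. Ctla4 stood above Cd28 in each of the 6 libraries on this per-length scale.

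The activating and the inhibitory receptor followed each other closely. Pearson's r of log2(FPKM + 0.1) between Cd28 and Ctla4 was 0.99 over the 6 chow libraries, and 0.99 after removal of the group means. Among 1306 genes with values in these libraries and a mean of at least 50 reads, Ctla4 was the gene most like Cd28 and Cd28 the one most like Ctla4. The next were Sh2d1a, the adaptor SAP of T and NK cells (r = 0.99 with Cd28 and 0.97 with Ctla4), and the interferon-induced Ifit2 (0.98 and 0.99). These points share libraries, and all 1306 genes come from tables selected for a difference in some comparison.

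The T cell markers with values were higher beside both receptors in the TET2 KO chow libraries. Of 12 listed markers 8 have values, and all 8 were higher in TET2 KO. An unadjusted edgeR p under 0.05 was reached by 6 of them, against 49.6% of all genes, and 0 passed after adjustment. The markers without values did not pass the authors' own test on chow, so the 8 are a set selected for a difference. The 8 were Cd3e, Cd8a, Cd8b1, Lck, Lat, Thy1, Il7r and Tcf7. Their summed level was 147 to 233 FPKM in WT and 241 to 349 in TET2 KO. None of the 4 regulatory T cell markers and none of the 6 B cell markers was analysed here. Cd28 amounted to 4.58, 4.51 and 4.02% of the summed T cell markers in WT and 4.42, 4.45 and 3.37% in TET2 KO. The difference in mean log2 ratio was -0.11 (exact permutation test, two-sided, p = 0.5, where 3 against 3 allows no p under 0.1). Ctla4 amounted to 6.96, 6.50 and 6.09% in WT and 6.82, 6.35 and 4.84% in TET2 KO, a difference of -0.13 in mean log2 ratio (exact permutation p = 0.6). Relative to these 8 markers, neither receptor was higher in TET2 KO, and both differences fell within the spread of the libraries. The 8 have values because they passed the authors' test in some comparison, and all 8 were higher in TET2 KO. A ratio to them therefore cannot show how the receptors stand to T cell RNA as a whole. Selection of the markers limits every such ratio below too. Lag3 and Cd86 were themselves listed for a difference in 3 of the 4 comparisons. A ratio of either to markers that went the other way adds no separate evidence.

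**Figure D1:**
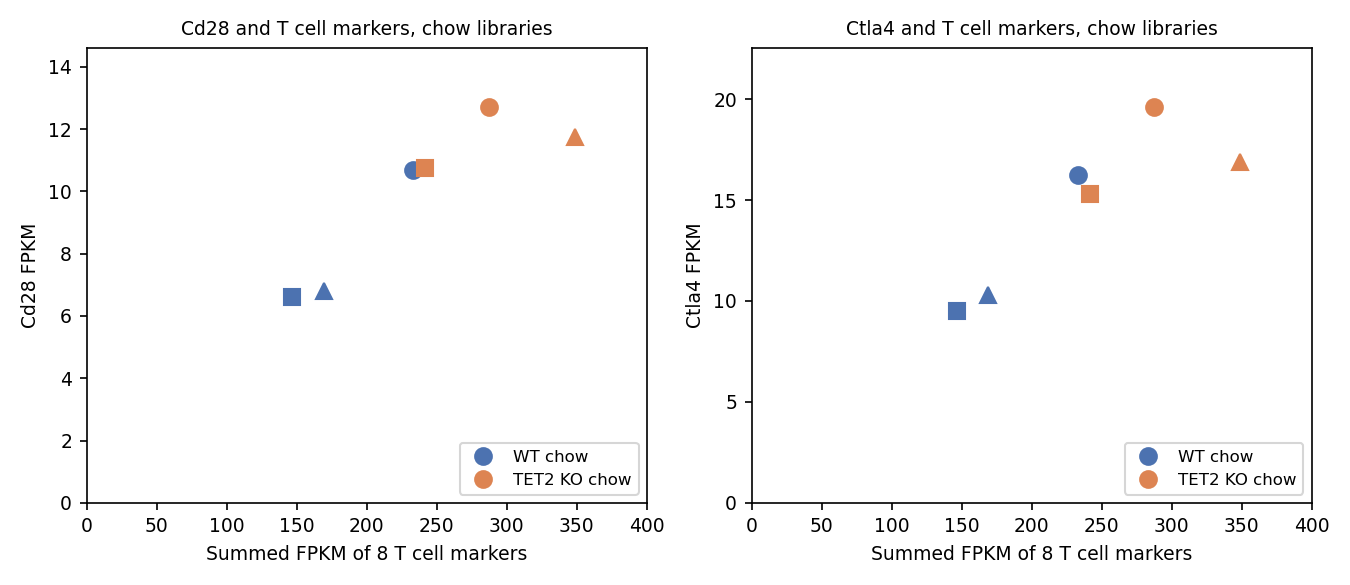
Cd28 (left) and Ctla4 (right) in FPKM against the summed FPKM of 8 T cell markers, 1 point per chow library, with circles, squares and triangles for replicates 1, 2 and 3. Both receptors are lowest in the 2 libraries with the lowest marker sums, and the sum spans 147 to 233 FPKM in WT (blue) and 241 to 349 in TET2 KO (orange).

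Lag3, the MHC class II-binding inhibitory receptor, was at 5.29, 8.84 and 5.70 FPKM in WT chow and at 2.95, 4.27 and 4.06 in TET2 KO chow. All 3 TET2 KO libraries were below all 3 WT libraries. The log2 fold change was -0.82 with SE 0.26, an unadjusted edgeR p of 0.0139 and an adjusted p of 0.462. Relative to the T cell markers, Lag3 amounted to 2.27 to 6.04% of their sum in WT and to 1.03 to 1.77% in TET2 KO (difference in mean log2 ratio -1.48, exact permutation p = 0.1, the smallest this design allows).

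Cd86, the shared ligand of CD28 and CTLA-4, was at 24.4, 22.7 and 28.4 FPKM in WT chow and at 10.5, 20.5 and 20.0 in TET2 KO chow. The groups did not overlap, and the first TET2 KO library was far below the other two. The log2 fold change was -0.57 with SE 0.26, with an unadjusted edgeR p of 0.0641 and an adjusted p of 0.565. Without the first TET2 KO chow library the log2 fold change was -0.32. Against the T cell marker sum, the difference in mean log2 ratio was -1.31 (exact permutation p = 0.1). Of 6 lung epithelial markers 3 have values (Epcam, Scgb1a1 and Scgb3a2), and all 3 were also lower in the TET2 KO chow libraries. So were 2 of 4 fibroblast and smooth muscle markers with values, while Pdgfra and Pdgfrb were not (log2 fold changes of 0.19 and 0.0008). edgeR called 0 of these markers, as it called 0 of all 1791 genes. Epcam differed little (log2 fold change -0.23, unadjusted edgeR p of 0.272). The secretory genes Scgb1a1 and Scgb3a2 had log2 fold changes of -0.90 and -1.29 (edgeR adjusted p = 0.462 for each), and the collagen genes Col1a1 and Col1a2 of -0.89 and -1.09 (edgeR adjusted p = 0.463 and 0.462). The sums of Epcam, Scgb1a1 and Scgb3a2 were 4250 to 5561 FPKM in WT and 2336 to 3058 in TET2 KO, and their part in Lag3 or Cd86 was not tested.

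Cd40lg, the helper T cell ligand, was at 5.09, 2.16 and 2.58 FPKM in WT chow and at 8.28, 4.09 and 8.70 in TET2 KO chow. The groups overlapped at the first WT and the second TET2 KO library. Its log2 fold change of 1.09 with SE 0.42 was the largest of the 5 on chow, with an unadjusted edgeR p of 0.0329 and an adjusted p of 0.498. The difference relative to T cell markers was 0.44 in mean log2 ratio (exact permutation p = 0.2). Cd40lg rested on 99 to 442 reads in these libraries, the fewest among the 5 genes.

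In TET2 KO against WT on chow, edgeR thus called 0 of the 5 genes at an adjusted p under 0.05, as it called 0 of all 1791 genes tested (0%), and DESeq2 called 0 of the 5. At an unadjusted p under 0.05, edgeR gave 3 of 5 (Cd28, Lag3 and Cd40lg) against a background of 49.6% of genes. Groups that did not overlap were seen for 3 of 5 (Cd28, Lag3 and Cd86) against 55.7%. Both shares are near the background. Without the first WT chow library the log2 fold changes of Cd28 and Ctla4 were 0.82 and 0.81. The count of 3 fell to 0 without the second WT chow library and to 1 without the third WT chow library, the first TET2 KO chow library or the third TET2 KO chow library.

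**Figure D2:**
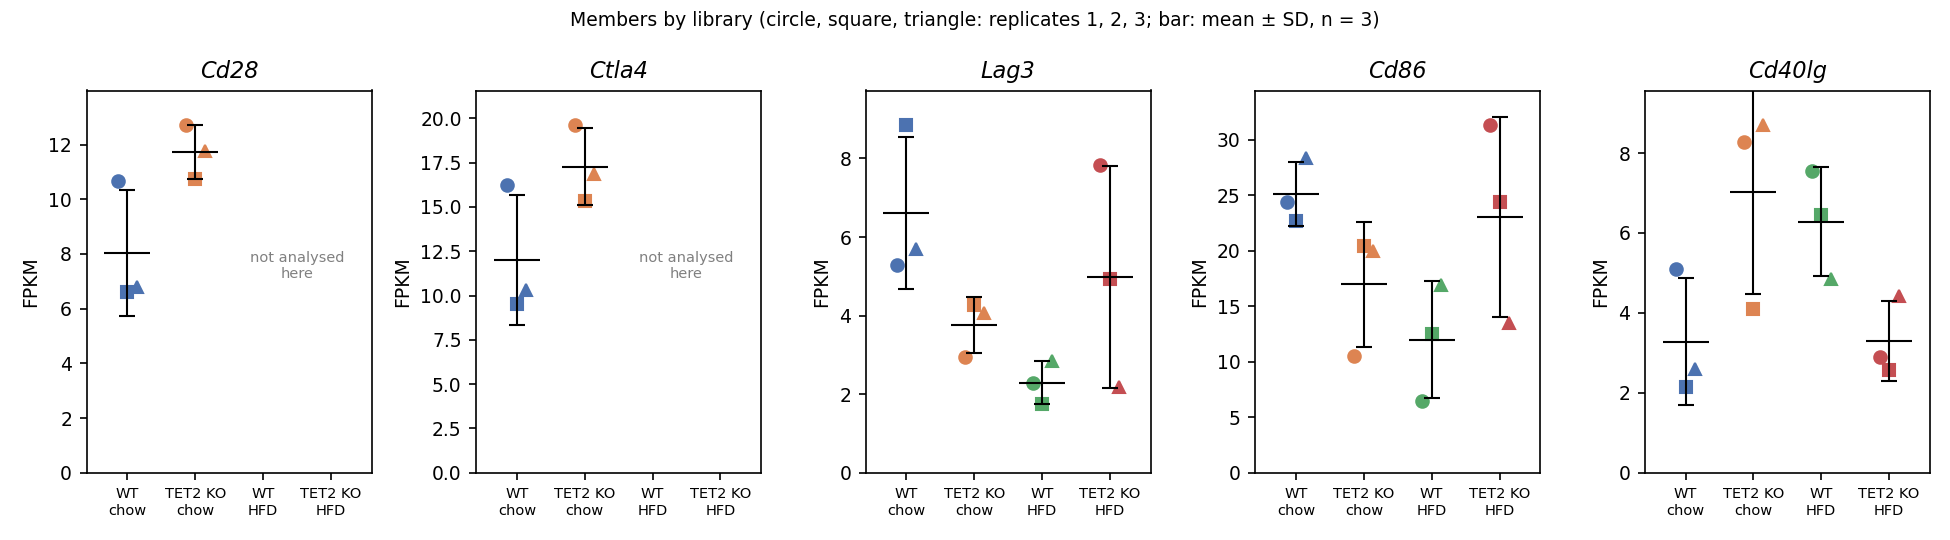
FPKM of each gene (vertical axes, linear from 0) by group, 1 point per library, with the mean and SD of 3 libraries in black. Lag3 and Cd86 are highest in WT chow (means 6.61 and 25.2 FPKM) and lowest in WT HFD (2.29 and 11.99), whereas Cd40lg is higher in TET2 KO chow and WT HFD (7.02 and 6.29) than in the other two groups (3.28 and 3.30).

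On HFD in WT mice, Lag3 was at 2.29, 1.75 and 2.84 FPKM, below every WT chow library. Lag3 fell by 1.52 on the log2 scale with SE 0.27, which is 2.87-fold, with an unadjusted edgeR p of 0.000754 and an adjusted p of 0.0146. Against the summed T cell markers with values here (Cd8a, Lck and Thy1), Lag3 amounted to 2.32 to 4.76% on HFD and 8.22 to 22.1% on chow (difference in mean log2 ratio -2.07, exact permutation p = 0.1). The T cell markers themselves were 3 of 3 higher on HFD at an unadjusted edgeR p under 0.05, against 91.2% of all genes. edgeR called 0 of them, against 72.7% of all genes.

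Cd86 was at 6.50, 12.5 and 17.0 FPKM in WT HFD, again below every WT chow library, and the lowest of the 3 came from the library with the most reads of the series. Cd86 fell by 1.06 on the log2 scale with SE 0.32, which is 2.09-fold (unadjusted edgeR p of 0.0127, adjusted p = 0.0332). Of 8 dendritic cell markers only Zbtb46 and Siglech have values here, and their sum was 9.66 to 11.1 FPKM on chow and 6.81 to 12.2 on HFD. Of 10 monocyte and macrophage markers 5 have values, with sums of 176 to 257 FPKM on chow and 216 to 356 on HFD. Both sums overlapped between the diets, while single markers went in both directions. Mrc1 and Marco, scavenger receptors of macrophages, fell by 1.05 and 1.25 on the log2 scale (edgeR adjusted p = 0.0282 and 0.0196), and Csf1r, Ly6c2 and Cx3cr1 rose by 1.21, 0.87 and 1.90 (0.0167, 0.0219 and 0.0141). Zbtb46 of conventional dendritic cells rose by 1.27 (edgeR adjusted p = 0.0308), whereas Siglech of plasmacytoid dendritic cells was at -0.67 (0.0956). The part of these cell types in the level of Cd86 was not tested.

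Cd40lg was at 7.55, 6.45 and 4.86 FPKM in WT HFD. The lowest of these was under the highest WT chow library, so the groups overlapped. The log2 fold change was 0.94 with SE 0.35, with an unadjusted edgeR p of 0.0316 and an adjusted p of 0.0529, just above the threshold. DESeq2 (adjusted p = 0.0296) and limma-trend with a pseudocount of 0.1 or 1 (adjusted p = 0.042 and 0.0471) called it. Of all 7357 genes they called 6185, 5288 and 4916. Relative to T cell markers the difference was 0.46 in mean log2 ratio, all 3 HFD libraries lay above all 3 chow libraries, and the exact permutation p was 0.1.

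In HFD against chow in WT, edgeR called 2 of 3 genes at an adjusted p under 0.05 against a background of 72.7% of 7357 genes, and 3 of 3 at an unadjusted p under 0.05 against 91.2%. Groups that did not overlap were found for 2 of 3 against 86.3%. The calls depend on how many genes the adjustment covers. Over the 21951 protein-coding genes of GENCODE M21 the adjusted edgeR p was 0.0343 for Lag3 and 0.0781 for Cd86, and over all 55450 annotated genes it was 0.0866 and 0.197. Without the second WT chow library edgeR called 0 genes in all and without the first WT HFD library 2, and in both cases Lag3 (adjusted p 0.0563 and 0.0551) and Cd86 (0.0734 and 0.0568) lost their call. Cd86 also lost it without the first or the third WT chow library or the second WT HFD library (0.0618, 0.0598 and 0.0728).

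**Figure D3:**
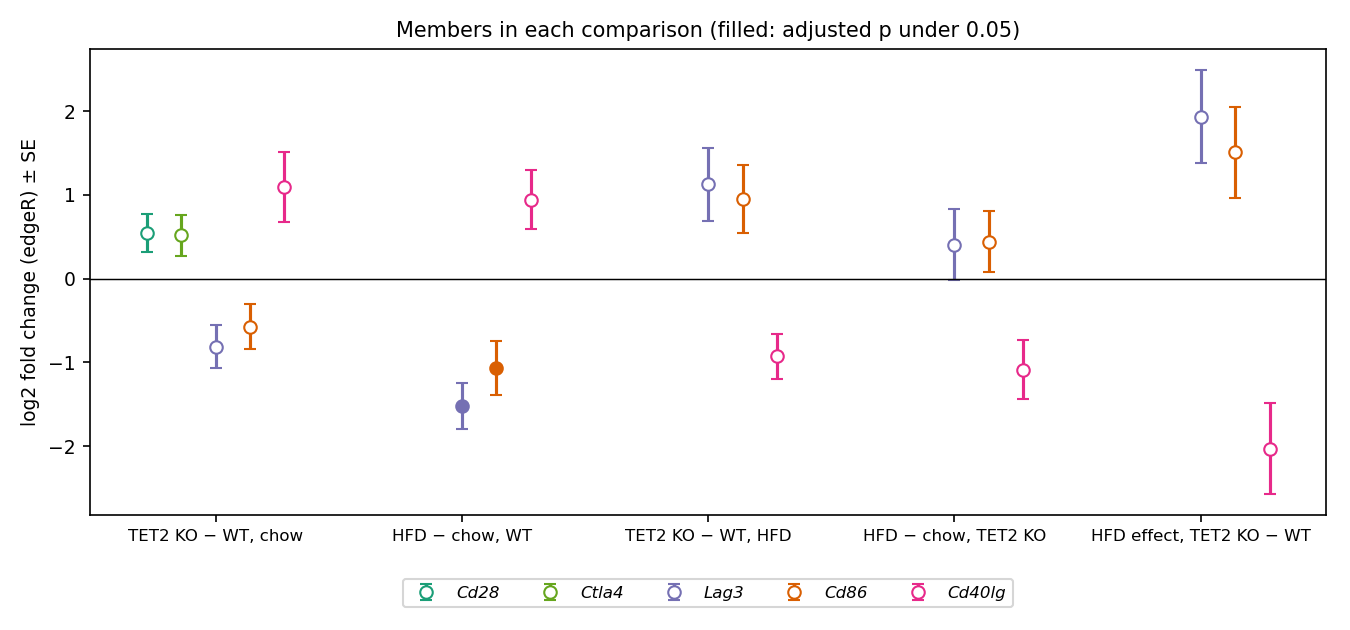
Log2 fold changes (vertical axis, edgeR, bars ± SE) of the 5 genes in the 4 comparisons and, at the right, the difference of the HFD effect between TET2 KO and WT. Filled points passed an adjusted p under 0.05 over 9338 genes, which only Lag3 (-1.52) and Cd86 (-1.06) did, both for HFD against chow in WT.

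Between TET2 KO and WT on HFD, the 3 genes with values differed in the direction opposite to that on chow, and edgeR called 0 of them. Lag3 was at 7.83, 4.93 and 2.18 FPKM in TET2 KO HFD, a wide spread in which the third library lay within the WT HFD range. Its log2 fold change was 1.13 with SE 0.44 (unadjusted edgeR p of 0.0346, adjusted p = 0.136), and 0.63 without the first TET2 KO HFD library. Cd86 was at 31.3, 24.4 and 13.5 FPKM in TET2 KO HFD, with the same library lowest. Its log2 fold change was 0.95 with SE 0.41 (unadjusted edgeR p of 0.051, adjusted p = 0.15). The groups overlapped for both genes.

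Cd40lg was at 2.90, 2.56 and 4.43 FPKM in TET2 KO HFD, and all 3 libraries were below all 3 WT HFD libraries. Its log2 fold change was -0.93 with SE 0.27 (unadjusted edgeR p of 0.0101, adjusted p = 0.125). The background in this comparison was 0% of 4360 genes at an adjusted p under 0.05 and 71.9% at an unadjusted p under 0.05, which 2 of 3 genes (Lag3 and Cd40lg) passed, and 68.5% of genes had groups that did not overlap, as 1 of 3 did. DESeq2 called 1 of the 3, Cd40lg (adjusted p = 0.044), against 1164 of all 4360 genes. The unadjusted count fell to 1 without the first or second WT HFD library or the first or second TET2 KO HFD library. Cd8a, the only T cell marker with values in these 6 libraries, was at 9.67 to 12.9 FPKM in WT and 7.74 to 11.1 in TET2 KO, and the ratio to T cell markers could not be formed.

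Between HFD and chow in TET2 KO mice, Cd40lg had a log2 fold change of -1.09 with SE 0.35 (unadjusted edgeR p of 0.0153, adjusted p = 0.371), and its groups overlapped at the second chow and the third HFD library. Same-numbered libraries deviated together weakly in this comparison (correlations of 0.12, 0.28 and 0.13), and the labels do not give them as pairs. Within each number Cd40lg was lower on HFD (2.90 against 8.28, 2.56 against 4.09 and 4.43 against 8.70 FPKM). With the replicate number as a block its unadjusted edgeR p was 0.0041 and its adjusted p 0.259. Lag3 and Cd86, which that comparison's own table does not list, had log2 fold changes of 0.41 with SE 0.42 (unadjusted edgeR p of 0.368) and 0.44 with SE 0.36 (unadjusted edgeR p of 0.255), and their groups overlapped. Without the first TET2 KO HFD library Lag3 turned to -0.080 and Cd86 was at 0.16, without the third TET2 KO HFD library they were at 0.76 and 0.71, and without the first TET2 KO chow library at 0.26 and 0.19. The background was 0.0508% of 1968 genes at an adjusted p under 0.05 (1 gene), 59.8% at an unadjusted p under 0.05 against 1 of 3 genes here, and 62% with groups that did not overlap against 0 of 3. edgeR and DESeq2 called 0 of the 3. The unadjusted count of 1 fell to 0 without the third TET2 KO chow or second TET2 KO HFD library and was 2 without the third TET2 KO HFD library.

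T cell markers were lower with Cd40lg in that comparison. The 4 with values (Cd8a, Cd8b1, Il7r and Tcf7) summed to 158 to 225 FPKM on chow and 102 to 141 on HFD in TET2 KO mice. All 4 had an unadjusted edgeR p under 0.05, against 59.8% of all genes, and 0 were called. Relative to them Cd40lg differed by -0.45 in mean log2 ratio (exact permutation p = 0.2), Lag3 by 0.84 (p = 0.4) and Cd86 by 1.03 (exact permutation p = 0.2). Within same-numbered libraries Cd40lg went from 4.60 to 2.28%, from 2.59 to 2.52% and from 3.87 to 3.15% of the marker sum on HFD. Cd86 went from 5.83 to 24.6%, from 13.0 to 24.0% and from 8.90 to 9.59%. Each had 1 sign under all 3 numbers, but the libraries come from different mice that the labels do not pair.

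The 4 comparisons share libraries, so their directions are not separate pieces of evidence. The test of whether the HFD effect depended on genotype used all 12 libraries at once. The HFD effect on Lag3 was higher in TET2 KO than in WT by 1.93 on the log2 scale with SE 0.55 (unadjusted edgeR p of 0.00455, adjusted p = 0.164). For Cd86 the difference was 1.51 with SE 0.54 (unadjusted edgeR p of 0.0166, adjusted p = 0.306). For Cd40lg it had the opposite sign, at -2.03 with SE 0.54 (unadjusted edgeR p of 0.00275, adjusted p = 0.147). edgeR called 0 of the 3 and 0% of 975 genes. DESeq2 called 2 (Lag3 and Cd40lg, adjusted p = 0.0405 and 0.0371), against 298 of all 975 genes. All 3 passed an unadjusted edgeR p under 0.05, as did 56.4% of genes. The unadjusted count stayed at 3 in each of the 12 fits that left out 1 library. The number over all 975 genes moved little too, from 550 to between 525 and 553.

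The order of the group means restates the values that entered this test and adds no evidence to it. For Lag3 the group means ran from WT chow (6.61 ± 1.94 FPKM, SD, n = 3) over TET2 KO HFD (4.98 ± 2.83) and TET2 KO chow (3.76 ± 0.71) to WT HFD (2.29 ± 0.55), and only the last pair of neighbours did not overlap. For Cd86 the order was the same, at 25.2 ± 2.89, 23.1 ± 8.99, 17.0 ± 5.63 and 11.99 ± 5.25 FPKM, with every pair of neighbours overlapping. Cd40lg ran from TET2 KO chow (7.02 ± 2.55) over WT HFD (6.29 ± 1.36) and TET2 KO HFD (3.30 ± 0.99) to WT chow (3.28 ± 1.59), and only WT HFD and TET2 KO HFD did not overlap.

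Across the 12 libraries, Lag3 and Cd86 varied together (Pearson's r of log2 FPKM 0.81, Spearman's rho 0.85) and both varied against Cd40lg (r = -0.71 for each). After the group means were removed the values were 0.62 for Lag3 with Cd86, -0.59 for Lag3 with Cd40lg and -0.52 for Cd86 with Cd40lg. These values pool the 4 groups and do not show the pattern in each. In TET2 KO HFD, Lag3 and Cd86 had the same order of libraries. In WT chow, the library with the highest Lag3 (8.84 FPKM) had the lowest Cd86 (22.7 FPKM). These are descriptions over libraries that share preparation and depth. Cd40lg followed Cd8a (r = 0.92), the second closest of 827 genes compared, after L3mbtl3 (0.93), and before Ifit1bl1 (0.92). Cd8a is the only listed T cell marker with values in all 12 libraries. All 827 genes were selected by the authors' test for a difference in some comparison. The genes most like Lag3 were Myo19, a myosin of mitochondria (0.95), Gk5 (0.95) and Ints6, a subunit of the Integrator complex (0.94). Those most like Cd86 were the splicing factor Isy1 (0.94), Dennd4a (0.94) and Simc1 (0.92).

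**Figure D4:**
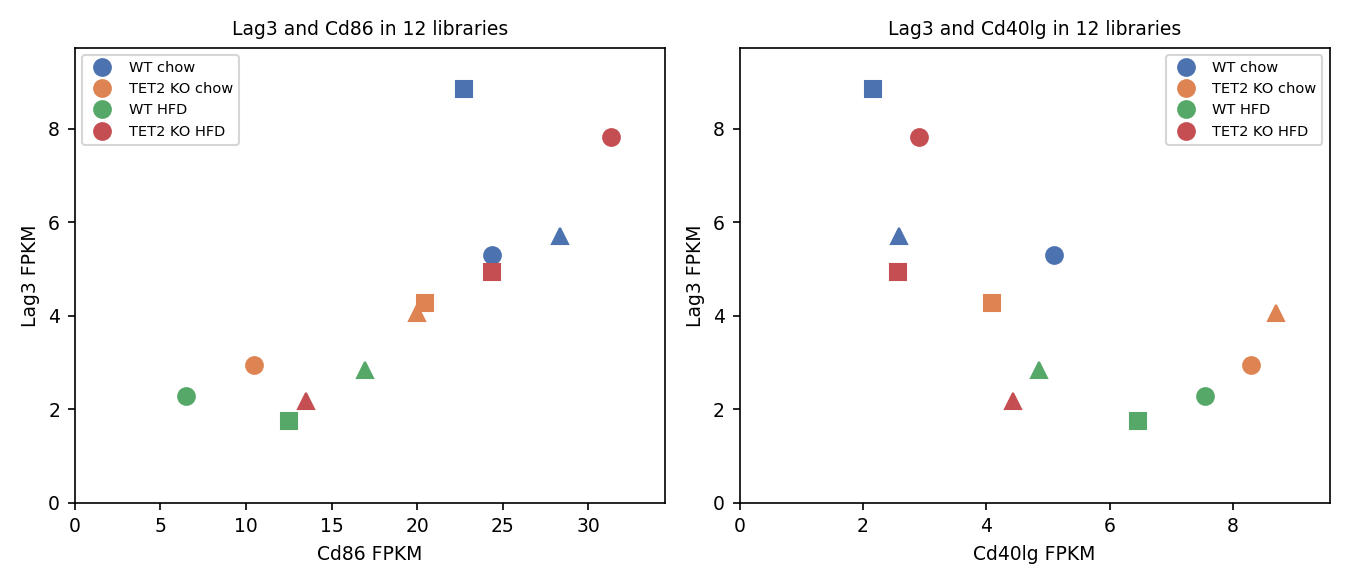
Lag3 in FPKM against Cd86 (left) and Cd40lg (right), 1 point per library in the 4 groups, with circles, squares and triangles for replicates 1, 2 and 3. Lag3 is higher where Cd86 is higher (r = 0.81 on the log scale) and lower where Cd40lg is higher (r = -0.71), and the TET2 KO HFD libraries spread along most of the range.

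Markers of other cells were set beside Lag3, Cd86 and Cd40lg. The platelet receptor gene Gp1ba, the 1 marker of its 5-gene list with values in all groups, was at 2.63 ± 0.61 FPKM in WT chow, 1.56 ± 0.65 in TET2 KO chow, 0.96 ± 0.09 in WT HFD and 1.70 ± 0.62 in TET2 KO HFD (SD, n = 3). Its group means had the same order as those of Lag3, and its difference of HFD effects was 1.58 (unadjusted edgeR p of 0.00876, adjusted p = 0.203). In WT on HFD against chow, the 3 platelet markers with values went in different directions. Gp1ba fell by 1.45 on the log2 scale (edgeR adjusted p = 0.0144), Itga2b was at -0.48 (0.0568) and Ppbp at 0.87 (0.13), with overlapping sums of 10.7 to 12.5 FPKM on chow and 8.12 to 22.4 on HFD. The endothelial markers had 10 of 10 higher in WT on HFD than on chow. edgeR called 8 of them, against 72.7% of all genes in that comparison. Their sums were 244 to 652 FPKM on chow and 730 to 1265 on HFD. In TET2 KO against WT on HFD, 7 have values and all 7 were lower. An unadjusted edgeR p under 0.05 was reached by 6, against 71.9% of all genes. Their sums were 669 to 1152 FPKM in WT and 346 to 637 in TET2 KO. The part of these shifts in the values of the 3 genes was not tested.

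Among the other genes of the same pathways, edgeR made calls for HFD against chow in WT. Outside the 5 genes, 76 pathway genes were listed, 20 have values in that comparison, 16 were higher and 4 lower, and edgeR called 10 higher and 2 lower at an adjusted p under 0.05. These 12 of 20 are a lower share than the 72.7% of all genes called there. Their median log2 fold change was 0.80, against -0.32 over all 7357 genes. In the list of other inhibitory receptors and ligands, 6 of 10 genes have values and all 6 rose. Klrg1, an inhibitory lectin of NK and effector T cells, rose from 0.89 ± 0.14 to 2.76 ± 0.80 FPKM (SD, n = 3, log2 fold change 1.63, edgeR adjusted p = 0.0146). Ceacam1, an adhesion molecule and TIM-3 ligand, rose from 16.9 ± 3.83 to 44.5 ± 6.07 FPKM (1.40, adjusted p = 0.0141). Cd200, whose product restrains myeloid cells, rose by 1.12 on the log2 scale (adjusted p = 0.0247), Cd244a by 0.95 (0.0234) and the collagen receptor gene Lair1 by 0.89 (0.0315).

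Markers of NK cells and endothelial cells rose in the same libraries. All 7 NK markers were higher in WT on HFD, 6 of them called by edgeR, against 72.7% of all genes. Their sum went from 22.3 to 41.7 FPKM on chow to 69.1 to 127 on HFD. Tnfrsf25, the death receptor DR3, rose as well, by 0.90 on the log2 scale (edgeR adjusted p = 0.0178). The 2 called lower were Grap2, an adaptor of T cell receptor and CD28 signalling (log2 fold change -0.61, adjusted p = 0.034), and Nfkb2, a subunit of the NF-kB pathway downstream of CD40 (-0.62, adjusted p = 0.019), named here after their values were seen. Without the second WT chow or the first WT HFD library, 0 of these pathway genes were called. Over the protein-coding genes 6 were called and over the whole annotation 0.

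edgeR called 0 of these genes in the remaining comparisons. For genotype on chow, 11 of the 76 genes have values, 10 were higher and 1 lower, and 8 had an unadjusted edgeR p under 0.05 against 49.6% of all genes, with a median log2 fold change of 0.60 against -0.09 over all genes. The B7-family gene Vsir, which encodes the checkpoint protein VISTA, was at 53.6 ± 3.91 FPKM in TET2 KO against 36.8 ± 4.67 in WT mice (SD, n = 3, log2 fold change 0.54, unadjusted edgeR p of 0.0139, adjusted p = 0.462). Tnfsf8, the CD30 ligand gene, was at 3.56 ± 0.65 and 2.31 ± 0.40 FPKM (0.62, unadjusted edgeR p of 0.0244, adjusted p = 0.482), and Vtcn1, a B7-family inhibitor, was at 0.099 ± 0.034 and 0.229 ± 0.038 FPKM (-1.21, unadjusted edgeR p of 0.0126, adjusted p = 0.462). DESeq2 and edgeR called 0 of the 11.

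In TET2 KO against WT on HFD, 14 have values, 8 were higher and 6 lower, and 10 had an unadjusted edgeR p under 0.05, near the 71.9% of all genes. edgeR called 0 of the 14 and DESeq2 called 3, against 1164 of all 4360 genes with DESeq2. Nfkb2 was at 113 ± 21.6 FPKM in TET2 KO against 66.5 ± 8.96 in WT mice (SD, n = 3, 0.77, unadjusted edgeR p of 0.00449, adjusted p = 0.125). Grap2 was at 45.6 ± 6.69 and 28.7 ± 5.26 FPKM (0.67, edgeR adjusted p = 0.125), and Tnfrsf25 at 3.02 ± 0.24 and 4.55 ± 0.58 (-0.59, edgeR adjusted p = 0.125). Nfkb2 and Grap2 thus had the direction of Lag3 and Cd86 in both WT HFD comparisons, and Tnfrsf25 that of Cd40lg, in comparisons that share the WT HFD libraries.

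In HFD against chow in TET2 KO, 12 have values, 5 higher and 7 lower, with 5 at an unadjusted edgeR p under 0.05 against 59.8% of all genes, and 0 called by edgeR or DESeq2. Cd200r1, the receptor for CD200 on myeloid cells, was at 2.72 ± 0.87 FPKM on HFD and 5.93 ± 0.97 on chow (SD, n = 3, -1.12, unadjusted edgeR p of 0.0049, adjusted p = 0.371). Pdcd1, which encodes the checkpoint receptor PD-1, was at 3.08 ± 0.63 and 1.94 ± 0.03 FPKM (0.66, unadjusted edgeR p of 0.018, adjusted p = 0.371). Relb, another NF-kB subunit below CD40, was at 24.5 ± 1.87 and 18.0 ± 2.31 (0.44, unadjusted edgeR p of 0.0305, adjusted p = 0.373).

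In the test of the HFD effect between genotypes, 4 pathway genes beside the 3 described have values, all 4 with an unadjusted edgeR p under 0.05 against 56.4% of all genes, and 0 called by edgeR. Tnfrsf25 (-1.16), Vsir (-1.11), the activating receptor gene Cd226 (-1.31) and Tnfrsf8 had the sign of Cd40lg, with unadjusted edgeR p of 0.0025, 0.00493 and 0.009 for the first 3. DESeq2 called 2 of the 4, Tnfrsf25 and Vsir, against 298 of all 975 genes.

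**Figure D5:**
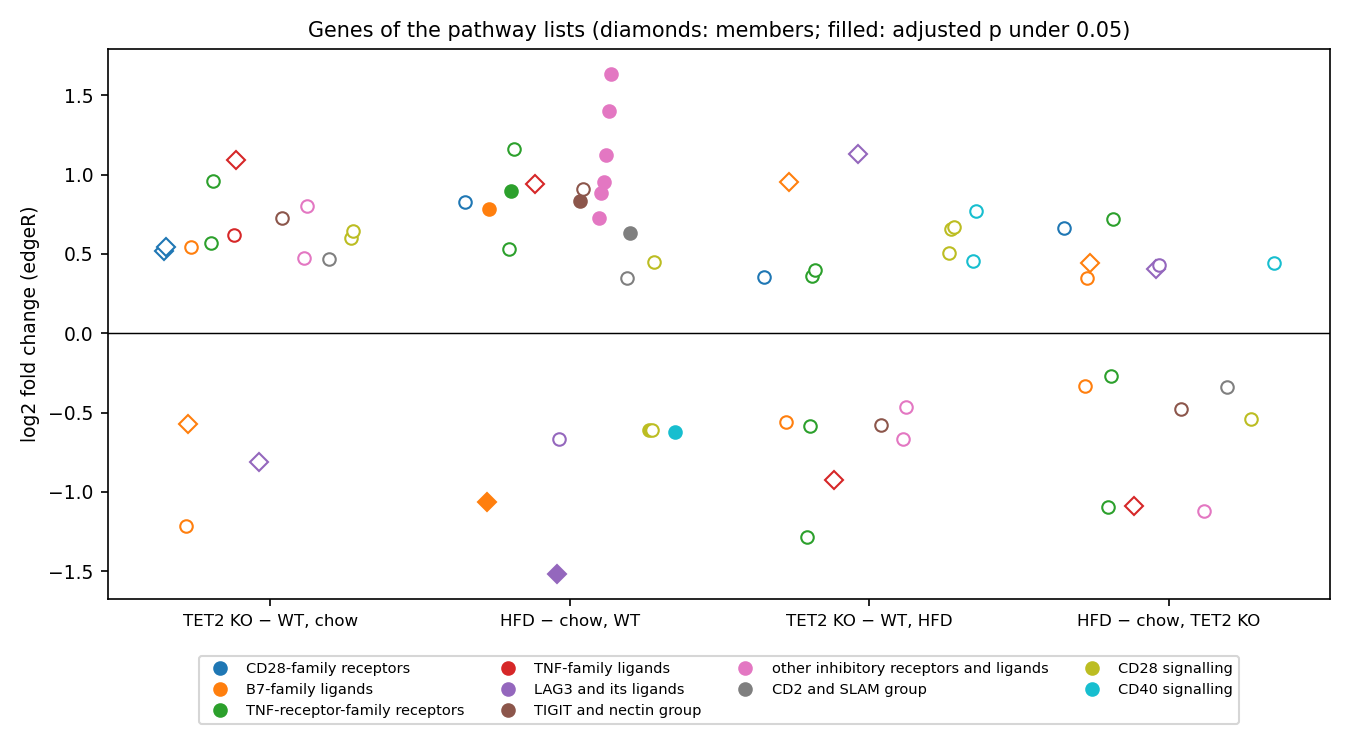
Log2 fold changes (vertical axis, edgeR) of all pathway genes with values in each of the 4 comparisons, coloured by list, with diamonds for the 5 genes and filled symbols for an adjusted p under 0.05. Filled symbols occur only for HFD against chow in WT, where all 6 other inhibitory receptors and ligands with values lie above 0 and Lag3 (-1.52) and Cd86 (-1.06) below.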

How the data were processed

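CD31+ lung cells were isolated with microbeads and poly(A) RNA of each mouse was sequenced. Per the labels and methods, the authors aligned reads with HISAT2 to mm10, counted them per gene with featureCounts and compared groups with DESeq2, with versions, annotation and strand setting not given in the sources used here. The authors deposited raw counts per gene, a normalized signal (count divided by 1 size factor per library and table) and FPKM. The deposited log2 fold changes and p-values are the authors' own comparisons and were not used. Every deposited table holds only genes under the authors' unadjusted p of 0.05 (1298 and 3939 genes for the genotype comparisons on chow and on HFD, 7330 and 1628 for the diet comparisons in WT and in TET2 KO). Counts of a library were identical wherever tables shared a gene (13653 values, 0 differing), so genes listed in another table were added.

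Counts were tested with edgeR 4.0.16 (quasi-likelihood, R 4.3.3) on the 2 groups compared, with the authors' size factors. Genotype by diet was tested on all 12 libraries with library totals recovered from counts, lengths and FPKM. The Benjamini-Hochberg adjustment ran over the 9338 genes of the 4 tables. These leave out the genes tested by the authors but not listed, so adjusted p-values may be too low. Genes without counts entered as p of 1, which raises adjusted p-values. For Lag3 on chow the edgeR adjusted p was 0.462, against 0.0886 over the fitted genes alone. The adjusted p-values are therefore not strict bounds. Alternatives were TMM factors, library totals, DESeq2 1.42.0, limma-trend 3.58.1 on log2(FPKM + 0.1) or (FPKM + 1), a mean of at least 10 reads, listed genes only, other numbers of genes in the adjustment, the replicate number as a block, and each library left out. The fits were tested on simulated data. Adjustment over protein-coding genes was added after the data were seen. Ratios to T cell markers used exact permutation tests (scipy 1.17.1).

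Labels number the mice 1 to 3 in each group. Deviations from group means of same-numbered libraries correlated at 0.12, 0.28 and 0.13 between TET2 KO HFD and TET2 KO chow, all over 0.1. On this weak ground, from the data alone, same-numbered libraries of those 2 groups were also set side by side. The labels name no pairs, and correlations between libraries of different numbers were not computed. In the other comparisons at least 1 correlation was negative, though replicate 2 of TET2 KO chow and WT chow reached 0.43. The members, gene lists and tests were chosen with earlier results of these data known. Genes named are the 5 members, Tet2, marker genes beside a result, the 3 genes most correlated with each member, and from the pathway lists up to 6 called genes with a mean of at least 10 reads and the largest change, or the 3 with the lowest p.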

Additional observations from a re-analysis of the deposited data

Results flagged for a closer look

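The difference of the HFD effect between TET2 KO and WT drew attention for 3 genes, because the test of that difference gave an unadjusted edgeR p under 0.05. It was 1.93 on the log2 scale for Lag3 (unadjusted edgeR p of 0.00455, adjusted p = 0.164), 1.51 for Cd86 (unadjusted edgeR p of 0.0166, adjusted p = 0.306) and -2.03 for Cd40lg (unadjusted edgeR p of 0.00275, adjusted p = 0.147). None passed after adjustment, and 56.4% of the 975 genes tested had an unadjusted p under 0.05. Groups of 3 libraries are too small for the check on single outlying samples.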

How the results depend on the processing

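Lag3, Cd86, Cd40lg, Cd28 and Ctla4 kept their direction under every alternative run, except Lag3 for HFD against chow in TET2 KO, which was -0.080 without the first TET2 KO HFD library (range -0.080 to 0.76 with 1 library left out). In HFD against chow in WT, the 2 calls (Lag3 and Cd86) became 1 over protein-coding genes and 0 over the whole annotation, since more genes enter the adjustment, and 0 to 2 with 1 library left out. They became 3, with Cd40lg added, with DESeq2, with limma-trend at either pseudocount and with adjustment over the fitted genes. DESeq2 called 1 gene for TET2 KO against WT on HFD and 2 for genotype by diet, against 1164 of 4360 and 298 of 975 genes. Adjustment over the fitted genes gave 3 for genotype by diet, against 540 of 975. Leaving out 1 library moved the number at an unadjusted p under 0.05 from 3 to between 0 and 4 for TET2 KO against WT on chow, from 2 to between 1 and 3 for TET2 KO against WT on HFD, and from 1 to between 0 and 2 for HFD against chow in TET2 KO. That number was 1 with limma-trend at either pseudocount for TET2 KO against WT on HFD.

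With the replicate number as a block, 5 of 5 genes had an unadjusted p under 0.05 for TET2 KO against WT on chow and 1 of 3 for TET2 KO against WT on HFD. The block changed no call at an adjusted p under 0.05 among the 5 genes. It brought the calls over all genes for HFD against chow in WT from 5350 to 2202. In these 3 comparisons at least 1 correlation of same-numbered libraries was negative, and for HFD against chow in TET2 KO the count stayed at 1.

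Over all genes, edgeR called 0, 5350, 0 and 1 in the 4 comparisons and 0 for genotype by diet, and DESeq2 called 3, 6185, 1164, 137 and 298. Scaling moved the median of all genes by over 0.1 in 2 cases. For HFD against chow in TET2 KO it went from -0.40 to -0.22 with TMM and -0.17 with DESeq2, and for genotype by diet from 0.05 to -0.30 and -0.08. Listed genes only gave no value for Lag3 and Cd86 in HFD against chow in TET2 KO. With 146 to 692 reads for Lag3 and 99 to 536 for Cd40lg per library, spread between mice limits both.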
